A study of Mus musculus with 2 samples.

Results

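Peritubular capillary and vasa recta endothelial cells were examined in a control and a JPI-289-treated postischemic mouse kidney. A barcode was counted as such a cell when it held at least 500 unique molecular identifiers (UMIs, each one captured RNA molecule), at most 50% of them from mitochondrial (mt-) genes, at least 4 UMIs and 0.2% of its UMIs from Pecam1, Cdh5, Kdr, Flt1, Egfl7 and Emcn together, and more UMIs of Plvap and Igfbp3 than of Ehd3 and Plat, with at least 1. This rule selected 339 of 6078 control barcodes and 375 of 6350 JPI-289 barcodes that met the UMI and mitochondrial limits, 714 cells of 12428 in all. The members were thus chosen on measured values of these 10 genes, so the levels of those genes are a description of the choice as well as of the cells.

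Both kidneys came from 9-week-old male C57BL/6 mice that underwent bilateral ischemia-reperfusion injury (IRI), and both were taken 24 h after the surgery. The control mouse received saline and the treated mouse 100 mg/kg of JPI-289, an inhibitor of poly(ADP-ribose) polymerase (PARP), into the peritoneal cavity just before reperfusion. Single-cell RNA was read from the 5′ end of transcripts. With 1 kidney and 1 library per condition, treatment cannot be told apart from the animal or the library, and no test between conditions was possible. Every interval below is a 95% interval for counting error only, except that intervals of list medians reflect the spread among the genes of the list.

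Peritubular capillaries are thin, fenestrated vessels that wrap the cortical tubules, take up what the tubules reabsorb and bring them oxygen. Plvap encodes the protein of the diaphragms that close their fenestrae, which the endothelium of mature glomeruli largely lacks. The vasa recta run in parallel bundles into the medulla, and their descending limbs carry the water channel aquaporin-1 and the urea transporter encoded by Slc14a1, while their ascending limbs are again fenestrated. After ischemia this microvascular bed is known for swelling, leukocyte adhesion and slow return of flow.

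The control library held 38328760 UMIs and the JPI-289 library 35548396. The members held 1833947 and 1475015 of them, with a median of 3215 UMIs and 1660 genes per control cell and 3010 UMIs and 1462 genes per JPI-289 cell. Members made up 5.58% (5.01 to 6.18, Clopper-Pearson) of control barcodes and 5.91% (5.34 to 6.51) of JPI-289 barcodes, intervals that overlap. The share of mt- UMIs was low in both, with medians of 2.62% and 2.33%. No member barcode was shared by both libraries, although 50 barcodes of at least 500 UMIs were, and 6 members had their barcode among those of the other library.

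Some cells lay at the edge of the rule. Of the members, 14 control and 23 JPI-289 cells had exactly 4 endothelial UMIs, and 39 and 40 further barcodes had 3. The sum of Plvap and Igfbp3 exceeded that of Ehd3 and Plat by 1 UMI in 17 and 19 members, and was equal to it in 27 and 22 endothelial barcodes, which were left out. Another 12 control and 31 JPI-289 barcodes had more Ehd3 and Plat than Plvap and Igfbp3 and were set aside as Ehd3 and Plat-rich barcodes.

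Markers that the rule did not use were present in the members. All 24 further pan-endothelial genes were measured, meaning at least 50 UMIs over both libraries, and together they stood at 10454 CPM (UMIs of the list per 1000000 UMIs of the members) for the control and 8213 for JPI-289. In the neutrophils of the same libraries, a class that should lack them, the same list was at 105 and 85.8 CPM. Genes of fenestrated capillaries were abundant too. Fabp4, a fatty acid carrier of capillary endothelium, was at 5178 and 6451 CPM, and Ly6c1, a surface protein of microvascular endothelium, at 6043 and 2894 CPM. The members therefore carried endothelial markers. In the Ehd3 and Plat-rich barcodes Fabp4 was at 4074 control and 5312 JPI-289 CPM and Ly6c1 at 942 and 2474 CPM. With JPI-289, these genes thus set the members little apart from those barcodes.

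Cells with Aqp1 or Slc14a1, genes of the descending vasa recta limb, were a small minority. Aqp1 is also a gene of proximal tubules. The list of descending limb markers, with S100a6 most abundant, was at 4339 control and 3282 JPI-289 CPM in the members. In neutrophils it was at 4154 and 4630 CPM, so its sum does not mark this limb. Aqp1 had at least 5 UMIs in 12 control cells (3.54%, 1.84 to 6.10) and in 21 JPI-289 cells (5.6%, 3.50 to 8.43). Slc14a1 had a UMI in 5 and 8 cells, and 4 and 7 of these also had Aqp1. Aqp1 summed to 744 control and 1217 JPI-289 UMIs, of which the 3 richest cells gave 73.4% and 46.8%, and its log2 ratio of JPI-289 over control, 1.02 (0.89 to 1.16), became 1.74 when the richest cell of each library was left out.

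**Figure D1:**
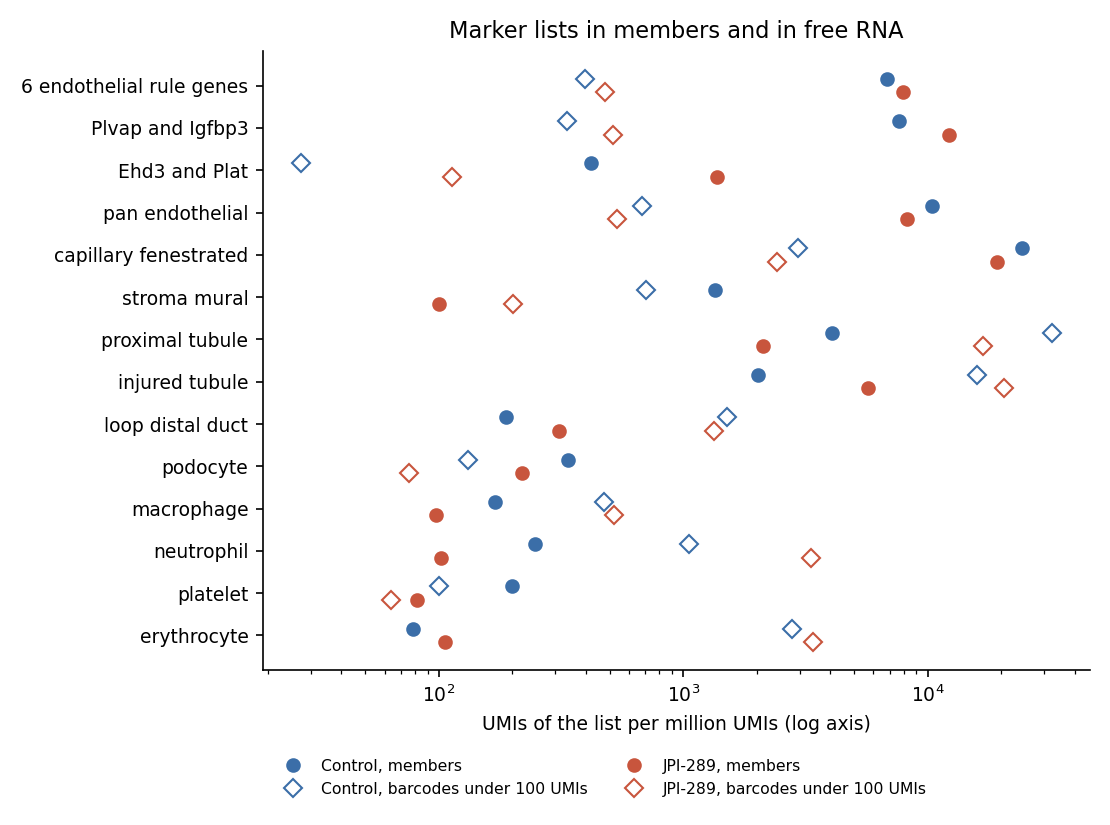
Summed level of marker lists in CPM (log axis) in the members (filled circles) and in barcodes under 100 UMIs, taken as free RNA (open diamonds), for the control (blue) and JPI-289 (red) libraries. Pan-endothelial and fenestrated capillary lists were far above free RNA in both libraries, proximal tubule markers lay below it at 4060 and 2120 CPM, and stromal and mural markers differed most between the libraries, at 1347 and 100.3 CPM.

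The genes that defined the population were themselves at very unlike levels in the 2 kidneys. Plvap (chr8:71497765-71511752, minus strand, GRCm38) had a median of 16 UMIs per control cell and 6 per JPI-289 cell, and summed to 10966 and 3753 UMIs. Igfbp3 (chr11:7206086-7213923, minus strand), which encodes a secreted carrier of insulin-like growth factors, had medians of 2 and 24 UMIs per cell and sums of 3031 and 14238 UMIs. The log2 ratio was -1.23 (-1.29 to -1.18) for Plvap and 2.55 (2.49 to 2.60) for Igfbp3.

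These counts per cell are a description, since a cell could enter through either gene. Igfbp3 had more UMIs than Plvap in 15.6% of control cells (11.9 to 19.9) and in 78.7% of JPI-289 cells (74.2 to 82.7). Plvap alone was seen in 35.4% of control and 6.93% of JPI-289 cells, Igfbp3 alone in 2.36% and 12.8%, and both in 62.2% and 80.3%. With each cell thinned to 500 UMIs, which left no member out, Igfbp3 was found in 39.8% of control (34.6 to 45.3) and 82.9% of JPI-289 cells (78.7 to 86.6), against 64.6% and 93.1% before thinning. In thinned neutrophils, which should lack it, Igfbp3 was found in 0 of 162 control cells, which allows a share of up to 1.85%, and in 0.515% of 583 JPI-289 cells, and the median depths of these cells were 2109.5 and 2171 UMIs.

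**Figure D2:**
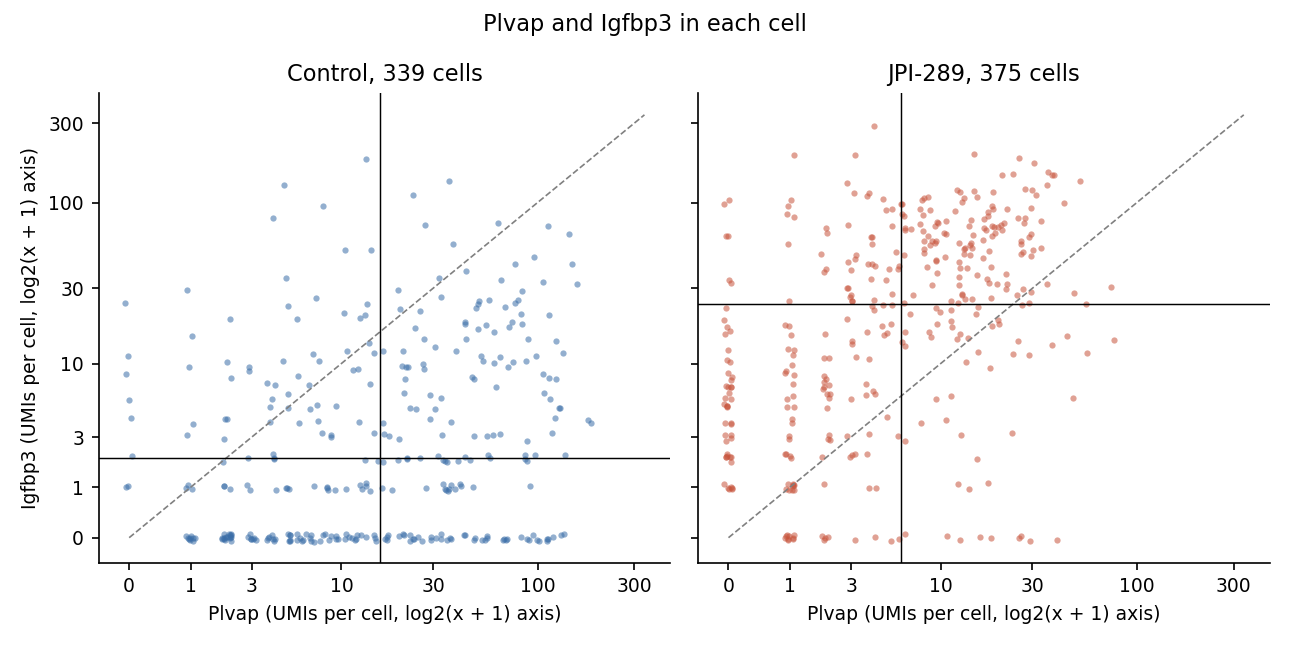
UMIs of Plvap (x axis) and Igfbp3 (y axis) in each member, on log2(x + 1) axes with a small random shift, for the 339 control and 375 JPI-289 cells. Black lines mark the medians (16 and 2 in the control, 6 and 24 with JPI-289), and the dashed line marks equal counts, above which 15.6% of control and 78.7% of JPI-289 cells lay.

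The other genes of the rule differed less, apart from Plat. Ehd3, which the rule summed with Plat, went the other way from Plat, at 402 and 151 UMIs, a log2 ratio of -1.10. Pecam1, Flt1, Kdr, Egfl7 and Emcn, genes of endothelial adhesion, vascular endothelial growth factor (VEGF) receptors and glycocalyx, had log2 ratios between -0.38 and 0.48. Cdh5, the cadherin of endothelial adherens junctions, summed to 999 control and 1645 JPI-289 UMIs and had a log2 ratio of 1.03 (0.92 to 1.15). Plat, the gene of tissue plasminogen activator, which the rule held below Plvap and Igfbp3 in each cell, still summed to 367 and 1871 UMIs, a log2 ratio of 2.66 (2.50 to 2.83). The Plat ratio was 0.18 among the 120 control and 26 JPI-289 members without Igfbp3. In those members the rule held Plat below Plvap alone, which was itself lower with JPI-289. That value is therefore bound by the choice of cells and shows no dependence on Igfbp3. Among all endothelial barcodes, with no condition on Plvap, Igfbp3, Ehd3 or Plat, the log2 ratios were 2.87 for Plat, 2.49 for Igfbp3 and -1.26 for Plvap. The members were most of these barcodes, so the values are nearly those of the members.

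Over the whole transcriptome, 7277 genes were measured in the members. JPI-289 cells were at least 2-fold higher for 420 of them, which is 5.77%, and at least 2-fold lower for 1024, which is 14.1%, and the median log2 ratio was -0.080. The excess of lower genes lay among genes with few UMIs. Of the 2263 genes with 50 to 99 UMIs, 22.5% were at least 2-fold lower and 5.52% higher, whereas of the 1116 genes with at least 500 UMIs, 6.27% were lower and 5.29% higher. The number of lower genes also depended on the UMI minimum, at 1827 with 20 UMIs and 514 with 100. With the richest cell of each gene left out of each library, 410 of the 420 and 995 of the 1024 were still past 2-fold in their direction.

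**Figure D3:**
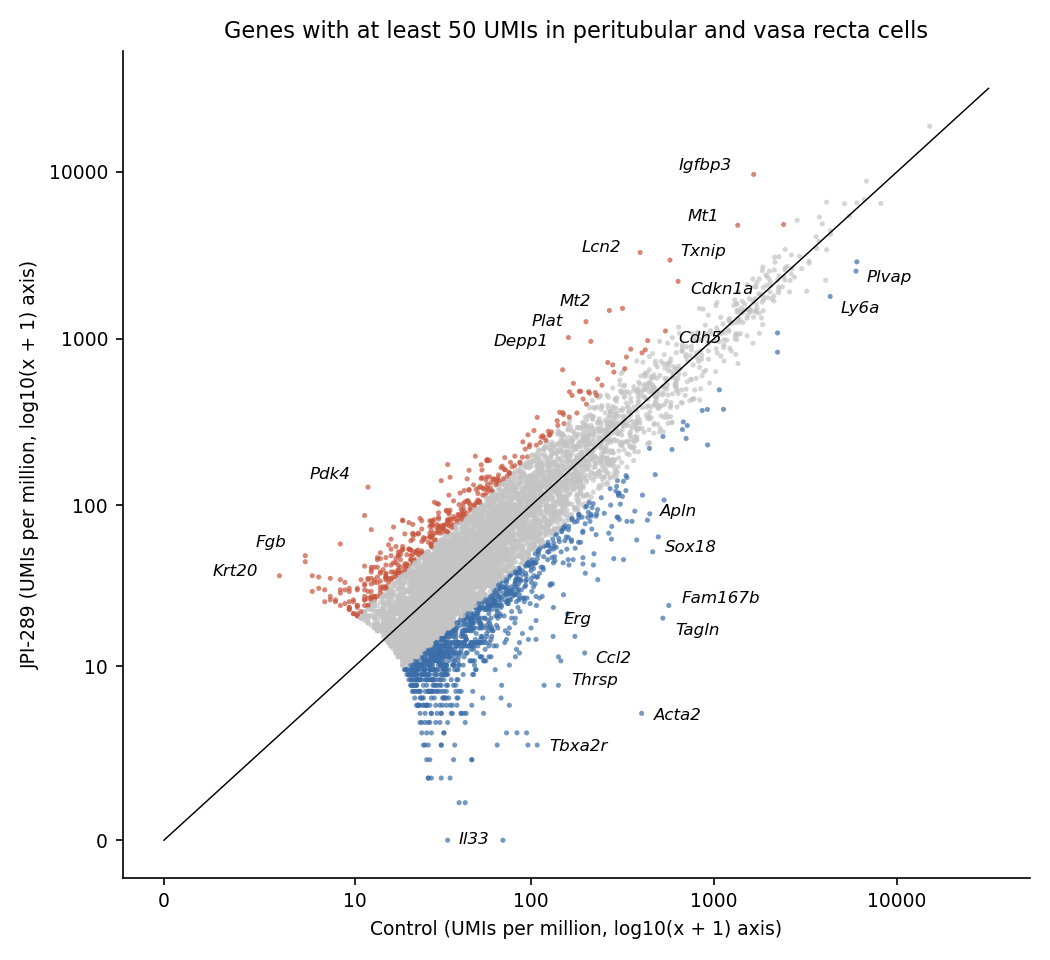
Level of each of the 7277 measured genes in the control (x axis) and JPI-289 (y axis) members, in CPM on log10(x + 1) axes. Red points are the 420 genes at least 2-fold higher and blue points the 1024 at least 2-fold lower with JPI-289, and the line marks equal levels. Igfbp3, Lcn2, Txnip and Mt1 stand well above the line, Fam167b, Sox18 and Acta2 lie far below it, and Il33 was at 0 with JPI-289.

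The 10 genes with the highest ratios, taken by the bound of the interval nearest to 0, included Igfbp3, Plat, Txnip, Pdk4 and Depp1. Txnip (chr3:96557957-96561883), which encodes a thioredoxin-binding protein that restrains glucose uptake, had 1058 control and 4370 JPI-289 UMIs, or 577 and 2963 CPM, a log2 ratio of 2.36 (2.26 to 2.46). Pdk4, the kinase that holds back pyruvate dehydrogenase, had 22 and 190 UMIs and a log2 ratio of 3.40 (2.78 to 4.13). Depp1, a target of FOXO transcription factors first described in decidua, had 294 and 1504 UMIs and a log2 ratio of 2.67 (2.49 to 2.85). These 3 genes were also higher outside the endothelium. In the barcodes that failed the endothelial sum, their log2 ratios were 1.32 for Txnip, 2.81 for Pdk4 and 4.09 for Depp1.

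Free RNA took a very different part of these counts. From the barcodes under 100 UMIs, and genes that endothelium should not express, free RNA was estimated at 14.4% of control and 11.7% of JPI-289 member UMIs. Its estimated share of the counts was 5.83% and 3.02% for Txnip and 1.02% and 1.87% for Depp1, but 100% and 94.8% for Pdk4. Subtracting it left Pdk4 with 0 and 9.80 UMIs, and the part of free RNA in the Pdk4 ratio was not tested further. In cells thinned to 500 UMIs, Txnip was found in 18.9% of control (14.9 to 23.5) and 67.5% of JPI-289 members (62.5 to 72.2), against 69.0% and 92.3% before thinning. In neutrophils, which also use the gene, the thinned shares were 22.8% and 33.3%.

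The metallothioneins, small proteins that bind zinc and copper, stood out among antioxidant genes. Mt2 had 493 control and 2183 JPI-289 UMIs, a log2 ratio of 2.46 (2.32 to 2.60), and Mt1 had 2480 and 7067 UMIs, a log2 ratio of 1.82 (1.76 to 1.89). Outside the endothelial set, the log2 ratios were 1.74 and 1.72. Free RNA was estimated at 13.1% and 7.24% of Mt2 and 20.2% and 14.3% of Mt1 counts in the members. Of the 17 measured genes of the antioxidant and metallothionein list, 3 were at least 2-fold higher and 0 lower, where 5.77% and 14.1% of all genes were, with a median log2 ratio of 0.0044 (-0.13 to 0.87) beside -0.080 for all genes.

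The 250 bases upstream of the RefSeq start sites of Txnip and of both metallothioneins, read in the sense of the gene from RefSeq on GRCm38.p6, are shown because these genes were high together with JPI-289 and their upstream regions are known for motifs of nutrient and metal response. In Txnip (chr3:96557707-96557956, plus strand) capitals mark GTAAACA, a forkhead-type motif, and CACGAG, which forms part of the carbohydrate response element. In Mt1 (chr8:94178839-94179088, plus strand) and Mt2 (chr8:94172368-94172617, plus strand) capitals mark the core of the metal response element on either strand, searched as TGCGCNC and TGCACNC. Each motif was searched only in the genes named with it, so the marks do not set the genes apart. The Txnip window also holds a match to TGCGCNC, and the Mt2 window holds CACGAG, both left in lower case.
Txnip: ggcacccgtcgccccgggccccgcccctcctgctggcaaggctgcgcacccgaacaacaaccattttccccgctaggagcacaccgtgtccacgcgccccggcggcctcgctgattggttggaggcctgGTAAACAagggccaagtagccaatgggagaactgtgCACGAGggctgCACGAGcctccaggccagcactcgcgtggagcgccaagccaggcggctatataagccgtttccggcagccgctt
Mt1: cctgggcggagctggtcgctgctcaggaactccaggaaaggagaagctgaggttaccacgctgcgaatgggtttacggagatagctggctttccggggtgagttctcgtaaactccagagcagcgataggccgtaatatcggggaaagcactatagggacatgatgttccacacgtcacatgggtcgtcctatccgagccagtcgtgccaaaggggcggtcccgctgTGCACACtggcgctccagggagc
Mt2: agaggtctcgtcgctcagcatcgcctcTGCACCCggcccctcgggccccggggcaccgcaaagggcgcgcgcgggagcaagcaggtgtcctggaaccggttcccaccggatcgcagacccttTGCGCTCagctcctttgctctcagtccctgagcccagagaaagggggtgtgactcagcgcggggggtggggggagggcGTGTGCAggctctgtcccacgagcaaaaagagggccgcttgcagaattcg

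In Txnip the CACGAG motif occurred 2 times and GTAAACA 1 time, both in the sense of the gene. Of 32851 upstream windows of this length in the RefSeq table, 3.17% held GTAAACA on either strand, 5.37% held CACGAG and 0.262% held CACGAG at least 2 times. Mt1 had 1 match to the metal response core and Mt2 had 3, of which 1 was on the opposite strand, and 21.4% of all windows had at least 1. A match describes the letters only and says nothing of binding in these cells.

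Genes of the p53 response tended to be higher with JPI-289, with positive log2 ratios for 12 of 16 measured targets. Of these targets, 5 were at least 2-fold higher and 1 lower, where 5.77% and 14.1% of all genes were, and the median log2 ratio was 0.32 (-0.014 to 1.45) beside -0.080 for all genes. Cdkn1a, which encodes the cell cycle inhibitor p21, had 1172 control and 3262 JPI-289 UMIs, a log2 ratio of 1.79 (1.69 to 1.89), and was found in 23.9% and 53.9% of thinned members (64.6% and 85.9% before thinning). Sesn1, a stress sensor that restrains growth signalling, had 35 and 119 UMIs, a log2 ratio of 2.07 (1.53 to 2.67). The apoptosis gene Bax and the ribosomal gene Rps27l differed little, with log2 ratios of 0.28 and 0.27, and the kinase Plk3 was lower, at -1.06 (-1.72 to -0.46). Cdkn1a and Sesn1 were also higher outside the endothelial set, by log2 ratios of 1.56 and 2.04.

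The drug target was close to the detection limit. Parp1 had 21 control and 6 JPI-289 UMIs, in 20 and 6 cells, too few to count as measured, and Parp2 had 43 and 12 UMIs, a log2 ratio of -1.48 (-2.59 to -0.58). Of the 10 measured genes of the PARP list, Tiparp, which adds single ADP-ribose units, was the only one at least 2-fold higher, at 33 and 58 UMIs (1.12, 0.49 to 1.79), and Parp2 the only one at least 2-fold lower, where 5.77% and 14.1% of all genes were. The median of the list was 0.51 (-0.79 to 0.97), all 10 genes had under 500 UMIs, and the median was -0.21 with a minimum of 20 UMIs per gene. Tnks2, a tankyrase, had 144 and 163 UMIs and a log2 ratio of 0.49 (0.16 to 0.83).

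The transcription factor genes Sox18 and Erg were lower with JPI-289. Sox18, a factor of vessel formation, had 851 control UMIs in 196 cells and 77 JPI-289 UMIs in 59 cells, a log2 ratio of -3.14 (-3.51 to -2.81). Erg, an ETS factor that maintains endothelial identity, had 243 and 35 UMIs and a log2 ratio of -2.46 (-3.04 to -1.97). Thinned to 500 UMIs, Sox18 was found in 15.6% of control and 3.47% of JPI-289 members (57.8% and 15.7% before thinning), and in 0 of the thinned neutrophils of either library, which allows shares of up to 1.85% and 0.515%. Neither gene depended on a single cell, as the ratios without the richest cells were -3.23 and -2.49.

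The whole pan-endothelial list leaned the same way but less far. Of its 24 measured genes, 6 were at least 2-fold lower and 0 higher, where 14.1% of all genes were lower, and the median log2 ratio was -0.41 (-0.89 to -0.11). Eng and Ramp2, coreceptors for bone morphogenetic proteins and for adrenomedullin, had log2 ratios of -0.31 and -0.62. Robo4 and Cd93, receptors that steady the vessel wall, were somewhat higher, at 0.32 and 0.57. Fenestrated capillary markers had a median of -0.69 (-1.27 to -0.18), with 5 of 12 at least 2-fold lower, where 14.1% of all genes were, among them Ly6c1 (-1.06, -1.11 to -1.01), Ly6a (-1.27, -1.33 to -1.20) and the fatty acid transporter Cd36 (-1.48, -2.05 to -0.96). Fabp4 was the main exception, at 0.32 (0.28 to 0.36).

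Several of the 10 lowest genes were present in many control cells and in few JPI-289 cells. Fam167b, a gene of poorly known function, had 1042 control UMIs in 218 of 339 cells and 36 JPI-289 UMIs in 30 of 375 cells, a log2 ratio of -4.52 (-5.06 to -4.06). Tbxa2r, the thromboxane receptor, had 198 UMIs in 95 cells and 4 UMIs in 4 cells (-5.15, -7.21 to -3.94). Thrsp, a gene of lipid synthesis, had 259 UMIs in 116 cells and 11 UMIs in 10 cells (-4.18, -5.26 to -3.38). Il33, an alarmin of the interleukin-1 family kept in endothelial nuclei, had 63 UMIs in 39 control cells and none among the JPI-289 cells, at least 16.9-fold lower with 3 counts over the group as the floor. These genes were seen in many control cells, none of which held more than 27 of their UMIs.

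Other genes among the 10 lowest rested on few control cells. Acta2, Tagln and Myh11, contractile genes of smooth muscle and pericytes, and the collagen gene Col3a1 had 740, 967, 79 and 173 control UMIs and 7, 30, 1 and 5 JPI-289 UMIs, and 1 control cell gave 234, 381, 34 and 115 of them. The list of stromal and mural markers summed to 2470 control and 148 JPI-289 UMIs in the members, of which 3 cells gave 1444 and 80. Tagln was its most abundant gene, 9 of its 13 genes were measured and 8 of these were at least 2-fold lower, where 14.1% of all genes were, while Lum was at 0 in both libraries. The part that mural RNA in mixed barcodes had in these values was not tested. Ccl6 had 127 of 176 control UMIs in 1 cell.

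Interferon-stimulated genes tended to be lower with JPI-289, with negative log2 ratios for 17 of 19 measured genes. Of these genes, 11 were at least 2-fold lower and 0 higher, where 14.1% of all genes were lower, and the median log2 ratio was -1.13 (-1.67 to -0.81). The median was -0.039 among the 120 control and 26 JPI-289 members without Igfbp3. Gbp7, which encodes a guanylate-binding protein, had 71 and 8 UMIs (-2.76, -4.10 to -1.78). Isg15, named after its values were seen, had 275 and 66 UMIs. The genes with most UMIs, which encode the membrane proteins Ifitm3 and Ifitm2, had log2 ratios of 0.34 and 0.27 and Bst2 one of -0.38, and the summed level of the list was 4623 and 4562 CPM. Of the 19 genes, 14 had under 500 UMIs, the range in which lower genes prevailed overall.

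Class I antigen presentation, which interferon also induces, lay near the median of all genes. Of 14 measured genes, 1 was at least 2-fold higher and 2 lower, where 5.77% and 14.1% of all genes were, with a median of 0.019. H2-D1, H2-K1 and B2m, the bulk of the list, had log2 ratios of 0.37, 0.39 and 0.062. H2-Q6 was higher, at 97 and 259 UMIs (1.73, 1.39 to 2.08), and H2-T23 and the immunoproteasome subunit Psmb9 were lower, at -1.82 and -1.67.

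Chemokines and cytokines tended to be lower with JPI-289, with negative log2 ratios for 9 of 10 measured genes. Of these genes, 5 were at least 2-fold lower and 0 higher, where 14.1% of all genes were lower, and the median log2 ratio was -1.03 (-3.97 to -0.0055). The median was -0.34 without the 5% of cells with most UMIs, and 9 of the 10 genes had under 500 UMIs. Ccl2, which draws monocytes, had 361 control UMIs in 30 cells and 18 JPI-289 UMIs in 10 cells, a log2 ratio of -3.97 (-4.78 to -3.33). Cxcl12, which retains leukocytes through CXCR4, had 64 and 9 UMIs (-2.45, -3.71 to -1.50). The neutrophil chemokine Cxcl1 had 349 and 125 UMIs, but 246 of the control UMIs lay in 1 cell, and its log2 ratio of -1.16 became 0.0044 without the richest cells. Ackr3, a scavenging receptor for CXCL12, ran the other way, at 60 and 96 UMIs (0.99, 0.51 to 1.48).

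Of 11 measured leukocyte adhesion genes, 1 was at least 2-fold higher and 1 lower, where 5.77% and 14.1% of all genes were. The median log2 ratio of the list was -0.20. Icam1, a ligand of leukocyte integrins, had 562 and 784 UMIs, a log2 ratio of 0.79 (0.64 to 0.95), and Selp, which encodes P-selectin, 76 and 135 UMIs (1.14, 0.73 to 1.57). Icam2, which is constitutive in endothelium, was lower, with 549 and 125 UMIs (-1.82, -2.11 to -1.54). Vcam1 was at 253 and 206 UMIs, a log2 ratio of 0.018 (-0.25 to 0.29) that was 1.63 among members without Igfbp3, and Sele had only 16 and 11 UMIs. Outside the endothelial set, Icam1 had a log2 ratio of -0.16, and the difference from the members was 0.96 (0.73 to 1.18).

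Genes of vessel growth also differed in both directions. Apln, the apelin ligand made by sprouting tip cells, had 796 control and 120 JPI-289 UMIs (-2.41, -2.70 to -2.14) in 60 and 29 cells. Esm1, another tip cell gene, had 645 and 1281 UMIs (1.30, 1.17 to 1.44) in 102 and 202 cells. Of the 15 measured genes of the VEGF, angiopoietin and apelin list, 5 were at least 2-fold lower and 1 higher, where 14.1% and 5.77% of all genes were, with a median of -0.56 (-1.43 to 0.16). The receptors Flt1 and Kdr stayed within 2-fold, as did Ptprb, the phosphatase of the Tie2 receptor, at -0.57. Tek, the gene of the Tie2 receptor itself, was lower, at -1.43. Pgf was lower, at 185 and 44 UMIs, although 99 of the control UMIs were in 1 cell. Of the 9 measured Notch genes 2 were at least 2-fold lower, Jag2 and Hes1, where 14.1% of all genes were, while Notch1 and Notch4 had log2 ratios of -0.15 and 0.040.

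Of 13 measured vasoactive genes, 1 was at least 2-fold lower and 0 higher, where 14.1% and 5.77% of all genes were. The median log2 ratio was -0.19 (-0.56 to 0.61). Nos3, the endothelial nitric oxide synthase, had 368 and 275 UMIs, a log2 ratio of -0.11 (-0.34 to 0.12). Klf2 and Klf4, factors induced by laminar flow, had log2 ratios of -0.21 and -0.49, and none of the 11 measured genes of their list passed 2-fold, where 5.77% of all genes were higher and 14.1% lower. Among members without Igfbp3, Klf2 was at 0.69. Edn1, the gene of endothelin-1, had 483 and 591 UMIs, a log2 ratio of 0.61 (0.43 to 0.78), which became 0.91 without the richest cells, 1 of which held 140 control UMIs. The Edn1 ratio was 1.91 among members without Igfbp3 and 0.21 among all endothelial barcodes. Ednrb, the endothelin B receptor, had 1178 and 1734 UMIs (0.87, 0.76 to 0.98). Among haemostatic genes, Plaur, the urokinase receptor, was higher with 927 and 1426 UMIs (0.94, 0.82 to 1.06). Vwf had only 20 and 5 UMIs.

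Basement membrane and matrix genes differed in both directions. Col4a1, a chain of the network collagen of basement membranes, had 3942 and 4549 UMIs, a log2 ratio of 0.52 (0.46 to 0.58), while Nid1, which links that network to laminin, was at 327 and 664 CPM (1.02, 0.87 to 1.17, and 0.22 among members without Igfbp3). Ccn2, a matrix protein induced by stretch and TGF-beta, had 588 UMIs in 62 control cells and 946 UMIs in 189 JPI-289 cells. Bgn, the gene of the proteoglycan biglycan, was lower, at 820 and 131 UMIs (-2.33, -2.61 to -2.06, and -0.96 among members without Igfbp3), as was Fn1. Of 20 measured genes, 9 were at least 2-fold lower and 1 higher, where 14.1% of all genes were lower and 5.77% higher, with a median of -0.64 (-1.27 to 0.44).

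All 18 measured genes of fatty acid oxidation had negative log2 ratios, 7 were at least 2-fold lower, where 14.1% of all genes were, and the median was -0.78 (-1.11 to -0.32). Of the 18 genes, 17 had under 500 UMIs, the range in which lower genes prevailed. Etfb, an electron carrier subunit for the pathway, had 306 and 91 UMIs (-1.43, -1.79 to -1.09), and Decr1, an enzyme for unsaturated fatty acids, 67 and 19 UMIs (-1.48, -2.32 to -0.75). Hadhb and Eci2, at -0.080 and -0.17, were close to the median gene. Proximal tubule cells express these genes strongly. In the same members, the proximal tubule list summed to 4060 control and 2120 JPI-289 CPM, Gpx3 was its most abundant gene, 5 of its 13 measured genes were at least 2-fold lower, where 14.1% of all genes were, and none was at 0. With free RNA subtracted, the median of the fatty acid oxidation list was -0.66. Among the 120 control and 26 JPI-289 members without Igfbp3 it was 0.34. The median of the proximal tubule list was -0.75, and 0.27 with free RNA subtracted. That 0.27 is the value of a gene with no UMIs left in either library, so it shows no direction.

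Of 14 measured glycolysis genes, 1 was at least 2-fold higher and 2 lower, and of 13 lipid uptake genes 3 were higher and 6 lower, where 5.77% and 14.1% of all genes were. The median log2 ratios were -0.31 and -0.62, while the summed levels, in which Gapdh and Fabp4 weigh most, were 8023 and 10101 CPM for glycolysis and 7119 and 8149 CPM for lipid uptake. Gapdh, an enzyme of glycolysis, had 7581 and 9716 UMIs, a log2 ratio of 0.67 (0.63 to 0.72), against -0.26 outside the endothelial set, and Pfkfb3, which drives endothelial glycolysis, 45 and 119 UMIs (1.71, 1.21 to 2.25). Pfkl, a phosphofructokinase, was lower, at 78 and 21 UMIs. Plin2, which coats lipid droplets, had 298 and 710 UMIs (1.57, 1.37 to 1.77). Angptl4, an inhibitor of lipoprotein lipase, was lower, at 51 and 10 UMIs.

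Proteasome genes lay slightly above the median of all genes. Of 31 measured subunits, 26 had positive log2 ratios, 1 was at least 2-fold higher and 0 lower, where 5.77% and 14.1% of all genes were, and the median was 0.29 (0.11 to 0.43). Psma2, a subunit of the core ring, had 449 and 779 UMIs (1.11, 0.94 to 1.28), and was at 0.88 outside the endothelial set. Psmb3, Psma7 and Psma3, the subunits with most UMIs, had log2 ratios of 0.49, 0.31 and 0.43. The median of heat shock genes was 0.038, and that of immediate early genes -0.43 (-0.64 to -0.13), with Atf3 lowest, at 581 and 167 UMIs (-1.48, -1.74 to -1.23).

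**Figure D4:**
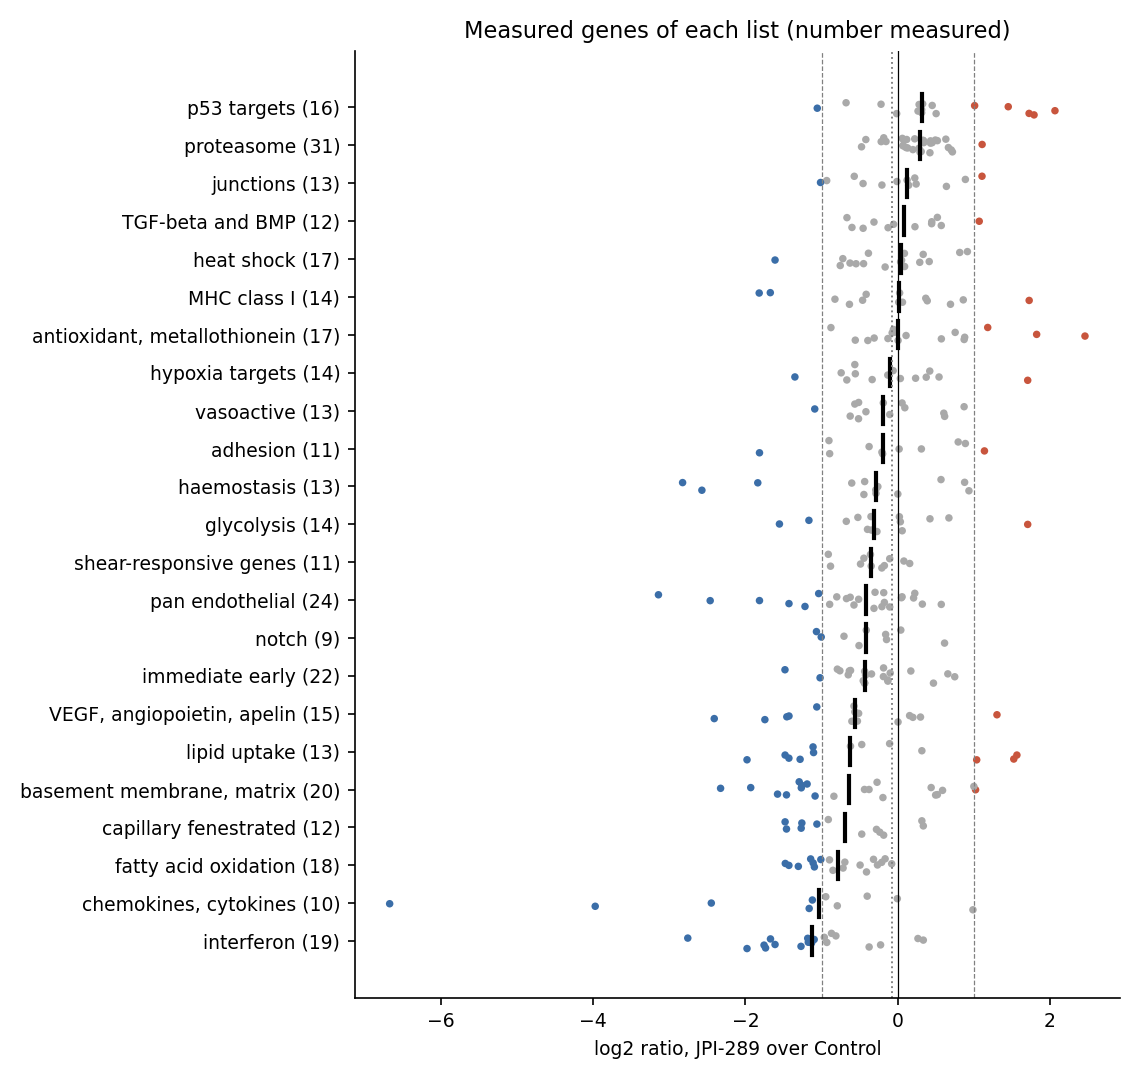
Log2 ratio of JPI-289 over control for each measured gene of 23 lists (points), with the list's median (black bar), no change (solid line), the median of all 7277 genes (dotted line) and 2-fold limits (dashed lines). Points are red at or above 2-fold higher and blue at or below 2-fold lower. Interferon genes had the lowest median, -1.13, and p53 targets the highest, 0.32 among the lists drawn. Il33, at 0 with JPI-289, is drawn at its fitted ratio, the leftmost point.

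Genes of injured tubules were also higher in the JPI-289 members. Lcn2, the gene of the injury marker NGAL, had 726 and 4856 UMIs, a log2 ratio of 3.06 (2.94 to 3.17), and was found in 15.3% of control and 49.9% of JPI-289 members after thinning (45.4% and 74.7% before), against 84.6% and 77.9% of thinned neutrophils, where it is a granule gene. Its log2 ratio outside the endothelial set was 0.43. Free RNA was estimated at 50.5% of control and 7.99% of JPI-289 Lcn2 counts in the members. Spp1, the most abundant gene of the list, had a log2 ratio of 0.48, and Havcr1, the tubule injury gene that encodes KIM-1, had 30 and 47 UMIs, of which free RNA took an estimated 83.9% and 93.2%. The list of injured tubule markers summed to 2015 and 5729 CPM in the members, 5 of its 8 measured genes were at least 2-fold higher, where 5.77% of all genes were, and none was at 0. For Fgb and Krt20, also among the 10 highest genes, the free RNA estimate was 100% of both counts. Aqp2, the collecting duct water channel, was there because 1 JPI-289 cell held 105 of 128 UMIs. With cells rich in other markers left out, the median log2 ratio of the injured tubule list was 2.81, against 1.65. The part of mixed barcodes in these values was not tested further.

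Members with more Igfbp3 than Plvap (53 control and 295 JPI-289 cells) and the others (286 and 80) are described separately. The split rests on genes that themselves differed between the libraries, so the values are a description and nothing is drawn from it. Txnip was higher with JPI-289 in both kinds, at 399 and 3078 CPM in the first and 629 and 2479 CPM in the second. Sox18 was lower in both, at 323 and 56.3 CPM and at 506 and 35.2 CPM. Ly6c1 was at 2921 and 2945 CPM in the first kind and at 6965 and 2680 CPM in the second. Gpihbp1, which anchors lipoprotein lipase in capillaries, was at 1233 and 931 CPM in the first and 1053 and 190 CPM in the second. Aqp1 was at 1525 and 1006 CPM in the first and 74.9 and 66.8 CPM in the second. Its log2 ratio over all members was 1.02, and the 3 richest cells held 73.4% of its control and 46.8% of its JPI-289 UMIs.

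The members were finally set beside the 12 control and 31 JPI-289 Ehd3 and Plat-rich barcodes, which held only 42466 and 121240 UMIs. These barcodes are given no cell type here, because their other markers were mixed. A list of further glomerular endothelial genes was at 730 and 388 CPM in them, against 575 and 462 CPM in the members. Arterial markers were at 659 and 4578 CPM, against 1099 and 982 CPM in the members, and mural markers at 165 and 4116 CPM, against 1347 and 100.3 CPM. Aqp1, at 406 and 825 CPM in the members, had 0 UMIs in control and 6 in JPI-289 Ehd3 and Plat-rich barcodes. Fam167b, at 568 and 24.4 CPM in the members, had 1 and 0 UMIs there. The transcription factor gene Atf3 was lower in the members, at 317 and 113 CPM against 1248 and 569 CPM. Ehd3, which the rule used, was at 219 and 102 CPM in the members and 565 and 124 CPM in these barcodes. The levels of Emcn and of Fabp4 differed by less than 2-fold between the sets in each library.

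Ratios in the members were also set beside those in the rest of the kidney. The difference in log2 ratio between members and all barcodes outside the endothelial set was 1.04 (0.93 to 1.15) for Txnip, 0.93 (0.89 to 0.98) for Gapdh and 0.10 (0.04 to 0.17) for Mt1. It was -1.43 (-1.63 to -1.23) for Plin2 and -2.39 (-3.09 to -1.69) for Ccl2. The barcodes outside the endothelial set hold many cell types in shares that differ between the libraries, neutrophils for example being 2.67% of control and 9.18% of JPI-289 barcodes, and the part of that makeup in their values was not tested.

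**Figure D5:**
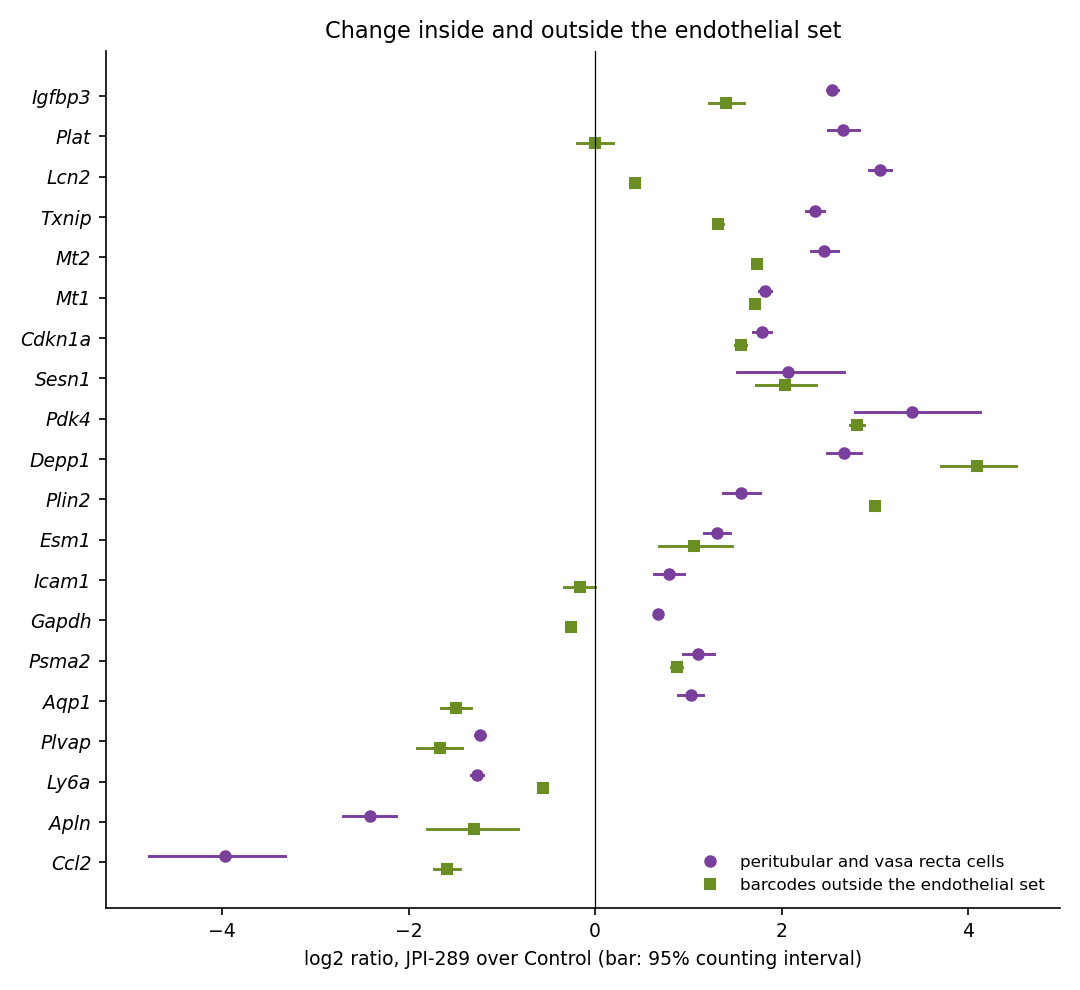
Log2 ratio of JPI-289 over control for 20 named genes in the members (purple circles) and in barcodes outside the endothelial set (green squares), with 95% counting intervals as bars. Igfbp3, Plat and Plvap were used by the rule and are drawn as a description. Lcn2 (3.06 and 0.43) and Aqp1 (1.02 and -1.49) stood far apart, while Mt1, Cdkn1a, Sesn1 and Psma2 lay close together.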

How the data were processed

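The authors deposited raw counts of UMIs for 32285 genes and every barcode, made per the labels with Cell Ranger 5.0.1 on mm10, with no cell calling; 40 repeated symbols were summed. UMIs of the members were summed per library and divided by the members' total. A log2 ratio had 0.5 UMI added to each sum and an exact binomial interval; genes under 50 UMIs over both libraries were not measured. Intervals of list medians are order statistics over genes. No doublet caller was run. Neutrophils served as a reference class. They had at least 20 UMIs and 3% of UMIs from S100a8, S100a9, Csf3r, Retnlg, Cxcr2 and Il1r2, with endothelial barcodes left out. Free RNA was taken from barcodes under 100 UMIs. Genes named are the 10 highest and lowest by the interval bound nearest 0, the 3 most abundant, 2 highest and 2 lowest of each list, the rule's genes and a fixed list. The members, lists and tests were chosen with earlier results of these data known. Coordinates are GENCODE M21 (GRCm38). The ratio step was tested on simulated data. Python 3.11.15, numpy 2.4.6 and scipy 1.17.1 were used. The closing section names the other settings that were run. Some genes that met this rule are not reported here.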

Additional observations from a re-analysis of the deposited data

Results flagged for a closer look

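5 named genes were at least 2-fold apart in one direction in the members and at least 2-fold apart in the other direction in the barcodes outside the endothelial set, with both counting intervals on one side of 0. With 1 library per condition these differences were not tested.

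Aqp1, the water channel of descending vasa recta and of proximal tubules, had a log2 ratio of 1.02 in the members and -1.49 outside, and the 3 richest members held 73.4% of its control and 46.8% of its JPI-289 UMIs. It was at 1525 and 1006 CPM in members with more Igfbp3 than Plvap and at 74.9 and 66.8 CPM in the others. That split rests on genes that themselves differed between the libraries, so nothing is drawn from it. Gja4, a connexin gene of arterial endothelium, had 106 and 184 UMIs in 21 and 22 members, a log2 ratio of 1.11, against -1.37 outside. The neutrophil genes S100a8, S100a9 and Ngp had log2 ratios of -1.50, -1.68 and -4.05 in the members and of 1.90, 1.84 and 4.05 outside. A single control member held 127 of 135, 183 of 189 and 51 of 51 of their control UMIs, which leaves too few for a ratio without it.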

How the results depend on the processing

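No paired analysis was possible because each condition has 1 library. Under every other setting run, 4 of them chosen after seeing the data (members with Igfbp3, members without it, all endothelial barcodes, and each gene's richest cells left out), the 41 of 55 genes examined that were past 2-fold kept their direction where they had a value, and 31 stayed past 2-fold. Of the other 10, each given with its value nearest to 0, Plat (0.18), Nid1 (0.22), Cdh5 (0.83), Plvap (-0.89), Esm1 (0.82) and Bgn (-0.96) lost it among members without Igfbp3, Aqp1 (0.75) among those with it, Aqp2 (0.58) without its richest cells, and Fgb and Krt20 with free RNA subtracted, which left them no UMIs and so no direction. Among genes within 2-fold, the same members without Igfbp3 gave 1.63 for Vcam1, 1.91 for Edn1, 1.46 for Icam1, and 0.69 for Klf2, 0.30 for Egfl7 and 0.16 for Pecam1, which turned positive, and Havcr1 was -0.25 with free RNA subtracted. The medians of 18 of 34 lists kept their sign, and that of PARP genes was -0.21 with a minimum of 20 UMIs. Genes at least 2-fold lower numbered 1827 with a minimum of 20 UMIs and 514 with 100. The median over all genes was -0.17 and -0.0021 under those minimums, -0.053 without the 5% of cells with most UMIs, 0 when centred on itself and -0.047 among the 219 control and 349 JPI-289 members with Igfbp3. The other settings were at least 1000 UMIs, at most 20% mt- UMIs, an endothelial sum of at least 8, a Plvap and Igfbp3 sum of at least 2, cells rich in other markers left out, 5 CPM added, mt- genes left out of totals and equal weight of each cell, and they changed no count of members or of genes past 2-fold by over 1.5 times. Among the 120 and 26 members without Igfbp3, a subset set by a gene that itself differed, 148 genes were higher and 217 lower, and the medians were 0.025 for all genes, 0.34 for fatty acid oxidation and -0.039 for interferon genes. In this subset the rule held Plat below Plvap alone, so the Plat value there is bound by the choice of cells. With free RNA subtracted the median of proximal tubule markers was 0.27, against -0.75. That 0.27 is the value that a gene with no UMIs left in either library takes, as Fgb and Krt20 did, so it shows no direction. The causes were not tested. Depth limits Parp1, Sele, Vwf, Slc14a1 and Aplnr, all under 50 UMIs.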

Other observations

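Further lists held smaller differences. Of 12 measured genes of TGF-beta and bone morphogenetic protein signalling, 1 was at least 2-fold higher with JPI-289 and 0 lower, where 5.77% and 14.1% of all genes were, and the median log2 ratio was 0.086. The higher gene was Tgfbr2, the type II receptor, with 297 and 502 UMIs (1.07, 0.86 to 1.28). Of 13 junction genes, 1 was at least 2-fold higher and 1 lower, shares to be read beside the same 5.77% and 14.1%. The lower gene was Jup, which encodes plakoglobin, with 817 and 325 UMIs (-1.01, -1.21 to -0.83).

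Ccnd2, Ccnd3 and Ccnd1 encode D cyclins, which act at the start of the cell cycle. Ccnd2 had 276 and 42 UMIs (-2.39, -2.91 to -1.93), Ccnd3 had 269 and 104 (-1.05, -1.40 to -0.73) and Ccnd1 had 539 and 223 (-0.96, -1.19 to -0.73). The replication genes Pcna and Mcm6 had log2 ratios of 0.050 and 0.16. Of 7 measured proliferation genes, 3 were at least 2-fold lower and 0 higher, where 14.1% of all genes were lower. The median of the list was -0.96, and it was -0.31 without the 5% of cells with most UMIs and -0.46 with equal weight of each cell.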
